A study of Mus musculus with 40 samples.

Results

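The genes described here are 10 lymphocyte and plasma cell genes (Cd3e, Cd3g, Cd4, Cd8a, Nkg7, Cd79a, Cd79b, Ms4a1, Jchain and Ighm) of the 55359 genes counted in mouse liver by RNA-Seq. They were chosen by symbol, matched to their Ensembl identifiers, and followed across all dose groups of a study of TCDD, a chlorinated dioxin that is a persistent contaminant and ligand of the aryl hydrocarbon receptor (AhR). Male C57BL/6 mice, aged 30 days at the start and 58 days at the end, received TCDD in sesame oil or sesame oil alone (vehicle) by gavage every 4 days for 28 days. The 8 groups of 5 mice were vehicle and TCDD at 30, 10, 3, 1, 0.3, 0.1 and 0.03 μg/kg, with 1 library from the frozen liver of each mouse and no allele or agent other than TCDD in the labels. The numbers in the library titles fall into a first run of 19 libraries and a second of 21, each with 2 or 3 mice of every group, and the labels do not say what the runs stand for.

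Lymphocytes are a minority of the cells of a liver, where they patrol the sinusoids and gather in the portal tracts. A T cell is recognised by the CD3 chains that carry the signal of its antigen receptor and by its coreceptor, CD4 on helper cells or CD8 on cytotoxic cells. A B cell carries an antibody on its surface, with CD79A and CD79B as the signalling chains and CD20 (Ms4a1) beside them. Plasma cells are the B cell descendants that secrete antibody, in which the J chain joins IgM and IgA into polymers. The AhR is itself expressed in lymphocytes, and TCDD is known as an immunotoxicant. In whole-liver RNA, more cells of a type and more RNA per cell cannot be told apart.

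Libraries held 15496128 to 20967093 counts in genes, so the members were measured from few reads. In vehicle livers the mean was 175 counts of Ighm, but 26.8 of Cd4, 21.4 of Jchain, 17.2 of Cd79a, 17.2 of Cd79b, 10.2 of Nkg7, 8.4 of Cd3g, 4.8 of Cd3e and 2.8 of Cd8a. All 10 members passed the filter on low counts. Cd3e, Cd3g and Cd8a passed through libraries of the higher doses, since 1, 4 and 2 of the 20 libraries of vehicle and the 3 lowest doses reached its cutoff of 0.573 CPM (the counts-per-million scale). Markers of plasma cells outside the members differed in level. Tnfrsf17, the receptor BCMA, had no count in 34 of 40 libraries and at most 4. Mzb1, a chaperone of antibody secretion, had a median of 1 count and at most 8. In vehicle and at 30 μg/kg, mean counts were 5.2 and 43.2 for Prdm1 and 4.6 and 112.6 for Slamf7. Sdc1 was at 326 CPM in vehicle but is also transcribed by hepatocytes. Among the members, the words "plasma cell" rest on Jchain and Ighm, which B cells can also transcribe. Cd3e shares 135 exon bases with an antisense gene, Gm48719, and because the libraries keep no strand, reads in that stretch cannot be told apart.

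Per kilobase of exon, which allows levels to be compared between genes, the vehicle mean was 5.96 CPM per kb for Ighm, followed by Cd79b (0.766), Nkg7 (0.743), Cd79a (0.740), Jchain (0.528), Cd4 (0.424), Cd3g (0.154), Ms4a1 (0.0998), Cd3e (0.0706) and Cd8a (0.0467). The ranges over the 5 mice overlapped for each pair of neighbours in this order other than Ighm and Cd79b. At 30 μg/kg the order of means was Ighm (6.23), Cd79b (2.00), Cd79a (1.88), Nkg7 (1.73), Jchain (0.412), Cd4 (0.359), Cd8a (0.324), Ms4a1 (0.260), Cd3g (0.238) and Cd3e (0.217).

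A RefSeq table held the promoter, 250 bases before to 50 after the start site, of 6 of the members: Cd3e, Cd3g, Cd8a, Nkg7, Cd79a and Jchain. These were searched on both strands for GCGTG, the core to which the AhR binds, for ATTTGCAT, the octamer of B cell promoters, and for CCCNNGGG, the inside of the palindrome read by the B cell factor EBF1. GCGTG was in the windows of Cd8a and Cd79a, both on the strand opposite to the gene, and in 32.4% of all 32851 promoters. Neither ATTTGCAT (1.74% of all promoters) nor CCCNNGGG (13.7%) was in any of the 6 windows. A match describes these letters alone. The windows of the 2 genes that hold GCGTG are shown, with the match, CACGC as read along the gene, in capitals. Both genes were called higher at 10 and 30 μg/kg, and so was Cd3e, whose window has no match. A link between the match and the rise was not tested.
Cd8a, GRCm38.p6 chr6:71373177-71373476, + strand: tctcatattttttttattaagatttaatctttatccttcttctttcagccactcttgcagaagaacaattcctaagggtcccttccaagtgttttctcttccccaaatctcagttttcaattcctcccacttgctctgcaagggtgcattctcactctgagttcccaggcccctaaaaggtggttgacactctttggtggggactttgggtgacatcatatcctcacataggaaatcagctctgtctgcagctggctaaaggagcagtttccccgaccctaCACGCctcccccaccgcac
Cd79a, GRCm38.p6 chr7:24897247-24897546, + strand: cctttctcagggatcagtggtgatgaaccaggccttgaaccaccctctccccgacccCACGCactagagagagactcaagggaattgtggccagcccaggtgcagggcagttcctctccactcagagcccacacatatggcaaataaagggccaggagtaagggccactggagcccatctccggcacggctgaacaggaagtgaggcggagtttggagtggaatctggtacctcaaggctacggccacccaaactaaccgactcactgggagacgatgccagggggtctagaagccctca
The match in Cd8a starts 31 bases after the start site and that in Cd79a 193 bases before it.

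Most of the members that changed did so at the 2 highest doses. Calls needed a difference of 1.5-fold or more from vehicle together with an adjusted p (Benjamini-Hochberg, over the 15373 genes tested) under 0.05 in the quasi-likelihood test of edgeR. No member of 10 was called at 0.03, 0.1, 0.3 or 1 μg/kg by edgeR or by DESeq2. An unadjusted p under 0.05 was reached by 0, 0, 0 and 2 of them (Cd8a and Jchain at 1 μg/kg). The share of all genes called higher at these doses was 0.0195%, 0.0846%, 0.403% and 2.15%. Ighm alone was called at 3 μg/kg, where 4.53% of all genes were higher. At 10 μg/kg 5 members were higher (Cd3e, Cd8a, Cd79a, Cd79b and Ighm) against 13.6% of all genes, and none was lower against 8.13%. At 30 μg/kg 6 members were higher (Cd3e, Cd8a, Nkg7, Cd79a, Cd79b and Ms4a1) against 23.2% of all genes, and none was lower against 18.9%. Cd3e and Cd8a reached the low-count cutoff in 0 vehicle libraries. They entered the tests, and so these counts and the dose trend, through the doses where they are high. All doses were compared with the same 5 vehicle mice, so the comparisons are not independent of each other. Within the runs, which hold fewer mice, 3 members were called in run 1 and 0 in run 2 at 10 μg/kg, and 3 (Cd8a, Nkg7 and Cd79b) and 2 (Cd8a and Cd79a) at 30 μg/kg. The log2 fold changes of the 6 members called at 30 μg/kg were positive in both runs, from 0.35 (Cd3e) to 2.30 (Nkg7) in run 1 and from 0.36 (Nkg7) to 3.27 (Cd8a) in run 2. These 6 were called as higher on the same livers pooled, which favours a positive sign in each run.

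Across the dose steps from 0 to 7, 7 members rose (Cd3e, Cd8a, Nkg7, Cd79a, Cd79b, Ms4a1 and Ighm), where 31.5% of all genes did, and Cd4 fell, where 26.1% did. For Ighm the slope is a straight line through a course that was called higher at 3 and 10 μg/kg but not at 30 μg/kg. The slope per step on the log2 scale was highest for Cd8a (0.37 ± 0.06, SE, adjusted p = 1.77e-06). Between neighbouring doses no member was called from 0.03 to 0.1, 0.1 to 0.3, 0.3 to 1, 1 to 3 or 3 to 10 μg/kg by edgeR, where 2, 1, 1, 0 and 0 of them had an unadjusted p under 0.05. The share of all genes called in either direction was 0.0390%, 0.0455%, 0.241%, 0.0585% and 6.77% for these steps. From 10 to 30 μg/kg 21.1% of all genes were called in either direction and 10.6% were lower, and Ighm was the member called, as lower.

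**Figure D1:**
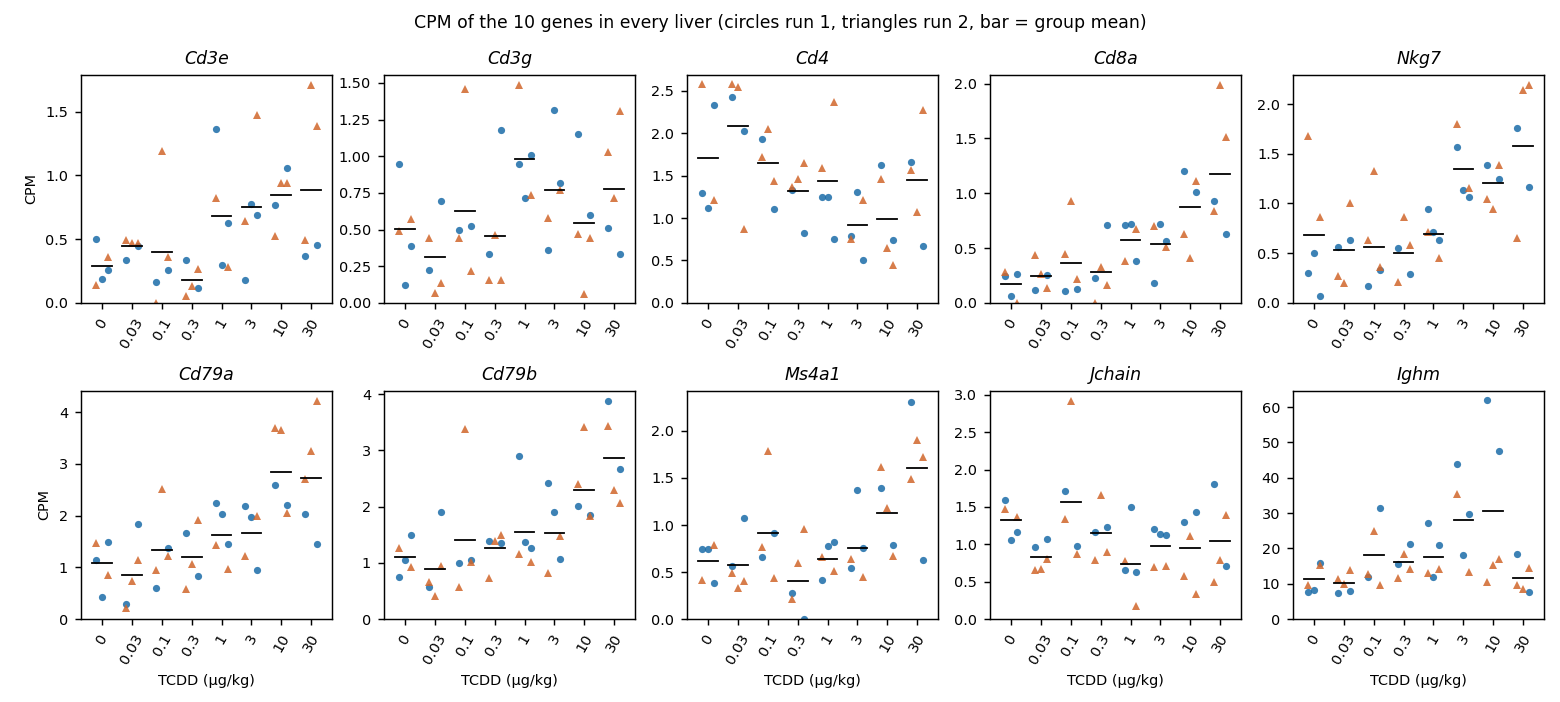
CPM on TMM-scaled library sizes (y axis, from 0) of each member in every liver against the TCDD dose in μg/kg (x axis, 0 is vehicle). Each point is 1 mouse, circles and triangles are the 2 numbering runs of the library titles, and bars are group means of 5 mice. Cd8a, Cd79a, Cd79b and Ms4a1 are highest at 10 or 30 μg/kg, while Ighm peaks at 3 and 10 μg/kg and at 30 lies at 7.65 to 18.5 CPM, near the vehicle range of 7.56 to 15.8.

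Cd8a, the alpha chain of the CD8 coreceptor, changed most. Vehicle livers held 5, 1, 4, 4 and 0 counts, or 0.249, 0.0622, 0.259, 0.280 and 0 CPM. Livers at 10 μg/kg held 1.20, 1.01, 0.625, 0.412 and 1.11 CPM, and those at 30 μg/kg 0.925, 0.623, 0.838, 1.98 and 1.52 CPM. All mice at 10 and 30 μg/kg, and also all at 1 μg/kg (0.378 to 0.717 CPM), lay above every vehicle mouse, while at 3 μg/kg 4 of 5 did. The fold change was 4.91 at 10 μg/kg (log2 2.30 ± 0.62, SE, edgeR adjusted p = 0.00364) and 6.59 at 30 μg/kg (log2 2.72 ± 0.61, adjusted p = 0.000231). It was not called at 1 μg/kg (log2 1.69 ± 0.63, adjusted p = 0.147). Some dendritic cells of the mouse also carry CD8 alpha. Cd8b1, the beta chain that pairs with it on cytotoxic T cells, had at most 3 counts in any vehicle liver and was at least 3.18-fold higher at 30 μg/kg (0.606 ± 0.225 CPM, SD, n = 5), with an edgeR adjusted p of 0.0254.

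Cd3e encodes the epsilon chain of CD3. Vehicle livers held 0.497, 0.186, 0.259, 0.140 and 0.358 CPM (10, 3, 4, 2 and 5 counts). The values were 0.767, 1.06, 0.521, 0.941 and 0.944 CPM at 10 μg/kg and 0.370, 0.457, 0.495, 1.71 and 1.39 CPM at 30 μg/kg. The groups did not overlap at 10 μg/kg, and at 30 μg/kg 2 of 5 mice exceeded the highest vehicle mouse. Cd3e was 2.84-fold higher at 10 μg/kg (log2 1.51 ± 0.59, edgeR adjusted p = 0.0491) and 2.97-fold higher at 30 μg/kg (log2 1.57 ± 0.59, adjusted p = 0.0223). The call at 10 μg/kg was lost in 8 of 10 fits that each left out 1 library (adjusted p 0.0615 to 0.115). At 30 μg/kg it was lost without vehicle replicate 2 or 4 or without TCDD 30 replicate 4 or 5 (adjusted p 0.0529 to 0.108).

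Cd3g, the gamma chain, did not pass the test at any dose. Its CPM was 0.944, 0.124, 0.388, 0.489 and 0.573 in vehicle and 0.509, 0.333, 1.03, 0.714 and 1.31 at 30 μg/kg, with overlapping groups (log2 0.61 ± 0.56, edgeR adjusted p = 0.379). Its highest group mean was at 1 μg/kg, 0.978 ± 0.312 CPM (SD, n = 5).

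Cd4, the coreceptor of helper T cells, fell along the dose steps under TMM scaling but not when libraries were scaled to their total counts. Vehicle livers held 1.29, 1.12, 2.33, 2.59 and 1.22 CPM, livers at 3 μg/kg 0.786, 1.31, 0.502, 0.756 and 1.22 CPM, and livers at 30 μg/kg 1.66, 0.665, 1.56, 1.07 and 2.27 CPM. No mouse at 3 or 10 μg/kg exceeded the vehicle mean, and the ranges overlapped. Along the dose steps it fell by 0.11 per step on the log2 scale (edgeR adjusted p = 0.0211), and it was not called at any single dose, the log2 differences being -0.89 ± 0.37 at 3 μg/kg (adjusted p = 0.130), -0.78 ± 0.36 at 10 (adjusted p = 0.0998) and -0.23 ± 0.35 at 30 (adjusted p = 0.597). Scaled to total counts, the difference at 30 μg/kg was 0.24. Some dendritic cells of the mouse carry CD4 too.

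Nkg7, a granule protein of NK cells and cytotoxic T cells, was higher at 30 μg/kg. Vehicle livers varied widely, with 0.298, 0.497, 0.0647, 1.68 and 0.859 CPM, against 1.76, 1.16, 0.648, 2.14 and 2.19 CPM at 30 μg/kg. At 30 μg/kg 3 of 5 mice exceeded the highest vehicle mouse, and the mouse with 0.648 lay inside the vehicle range. The fold change was 2.36 (log2 1.24 ± 0.48, edgeR adjusted p = 0.0283). This call was lost without vehicle replicate 1, 2 or 3 or without TCDD 30 replicate 4 or 5 (log2 0.94 to 1.14, adjusted p 0.0642 to 0.0926). Without vehicle replicate 4, the highest vehicle liver, Nkg7 was also called at 3 μg/kg (log2 1.66, adjusted p = 0.0399) and at 10 μg/kg (log2 1.495, adjusted p = 0.0264).

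**Figure D2:**
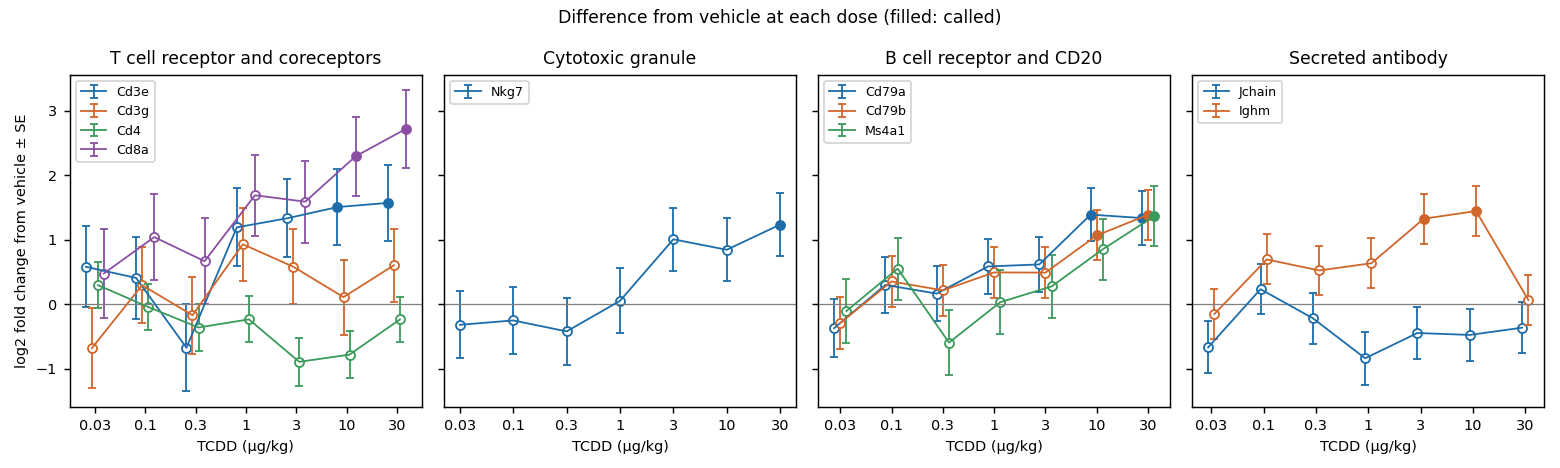
Log2 fold change from vehicle with its SE (y axis) at each TCDD dose in μg/kg (x axis), from edgeR, with 5 mice in each group. Filled points were called and open points were not. Cd8a reached 2.72 and the B cell genes 1.34 to 1.39 at 30 μg/kg, while Ighm returned from 1.45 at 10 μg/kg to 0.07.

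All 3 B cell members were higher at 30 μg/kg. Cd79a, a signalling chain of the B cell receptor, was at 1.14, 0.435, 1.49, 1.47 and 0.859 CPM in vehicle, at 2.59, 2.21, 3.70, 3.65 and 2.05 CPM at 10 μg/kg and at 2.03, 1.45, 2.71, 3.25 and 4.21 CPM at 30 μg/kg. All mice at 10 μg/kg and 4 of 5 at 30 μg/kg exceeded every vehicle mouse. The fold change was 2.62 at 10 μg/kg (log2 1.39 ± 0.42, edgeR adjusted p = 0.00903) and 2.53 at 30 μg/kg (log2 1.34 ± 0.41, adjusted p = 0.00608).

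Cd79b, its partner chain, was at 0.746, 1.06, 1.49, 1.26 and 0.930 CPM in vehicle and at 3.88, 2.66, 3.43, 2.30 and 2.06 CPM at 30 μg/kg, with no overlap at 10 (1.83 to 3.41 CPM) or 30 μg/kg. It was 2.10-fold higher at 10 μg/kg (log2 1.07 ± 0.39, edgeR adjusted p = 0.0315) and 2.62-fold higher at 30 μg/kg (log2 1.39 ± 0.38, adjusted p = 0.00227). The call at 10 μg/kg was lost in 5 of 10 fits that left out 1 library (vehicle replicate 1, 2 or 5, or TCDD 10 replicate 3 or 4, adjusted p 0.0518 to 0.101).

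Ms4a1, which encodes the B cell surface protein CD20, was called at 30 μg/kg. Vehicle livers held 0.746, 0.746, 0.388, 0.419 and 0.787 CPM and those at 30 μg/kg 2.31, 0.623, 1.49, 1.90 and 1.73 CPM. The mouse at 0.623 was inside the vehicle range and the other 4 were above it. The fold change was 2.58 (log2 1.37 ± 0.46, edgeR adjusted p = 0.0121), and 1.81 at 10 μg/kg, where it was not called (adjusted p = 0.171). The calls of Cd8a, Cd79a, Cd79b and Ms4a1 at 30 μg/kg, and those of Cd8a, Cd79a and Ighm at 10 μg/kg, were kept in each of the 10 fits that left out 1 library.

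Ighm, the constant region of the IgM heavy chain, had another course. Vehicle livers held 152, 130, 245, 136 and 213 counts, or 7.56, 8.08, 15.8, 9.51 and 15.2 CPM. Livers at 3 μg/kg held 44.0, 18.2, 29.8, 35.3 and 13.3 CPM, livers at 10 μg/kg 61.9, 47.6, 10.6, 15.3 and 17.0 CPM, and livers at 30 μg/kg 18.5, 7.65, 9.75, 8.49 and 14.4 CPM. At 3 μg/kg 4 mice and at 10 μg/kg 3 mice exceeded the highest vehicle mouse, and at 30 μg/kg 1 did. The fold change was 2.51 at 3 μg/kg (log2 1.33 ± 0.39, edgeR adjusted p = 0.0212), 2.72 at 10 μg/kg (log2 1.45 ± 0.39, adjusted p = 0.00354) and 1.05 at 30 μg/kg (log2 0.07 ± 0.39, adjusted p = 0.902). Between 10 and 30 μg/kg Ighm was 2.60-fold lower (log2 -1.38 ± 0.38, adjusted p = 0.00478).

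The mean of Ighm at 10 μg/kg came largely from 2 mice. These were the 2 mice of the first numbering run (titles up to 27), at 47.6 and 61.9 CPM, while the 3 of the second run lay at 10.6 to 17.0 CPM. Against vehicle at 10 μg/kg, the log2 difference in run 1 alone was 2.38 (edgeR adjusted p = 0.00287) and in run 2 alone 0.21 (adjusted p = 0.787). A test of this difference between runs, added after the data were seen, gave 2.18 ± 0.64 on the log2 scale with an unadjusted p of 0.0020 and an edgeR adjusted p of 1.00 over all genes. The fall from 10 to 30 μg/kg was -2.07 in run 1 alone (adjusted p = 0.0407) and -0.42 in run 2 alone (adjusted p = 0.441). Without TCDD 10 replicate 1 it was -0.95 and not called (adjusted p = 0.0522). The call at 3 μg/kg was lost without vehicle replicate 1, 2 or 4 or without TCDD 3 replicate 1 or 4 (adjusted p 0.0538 to 0.0756).

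Jchain, the chain that joins IgM and IgA polymers, did not pass the test at any dose or along the dose steps. It was at 1.59, 1.06, 1.16, 1.47 and 1.36 CPM in vehicle and at 1.80, 0.707, 0.495, 0.793 and 1.39 CPM at 30 μg/kg (log2 -0.36 ± 0.39, edgeR adjusted p = 0.451). The groups overlapped, with 1 mouse above and 3 below the vehicle range. Scaled to total counts the difference was 0.094.

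**Figure D3:**
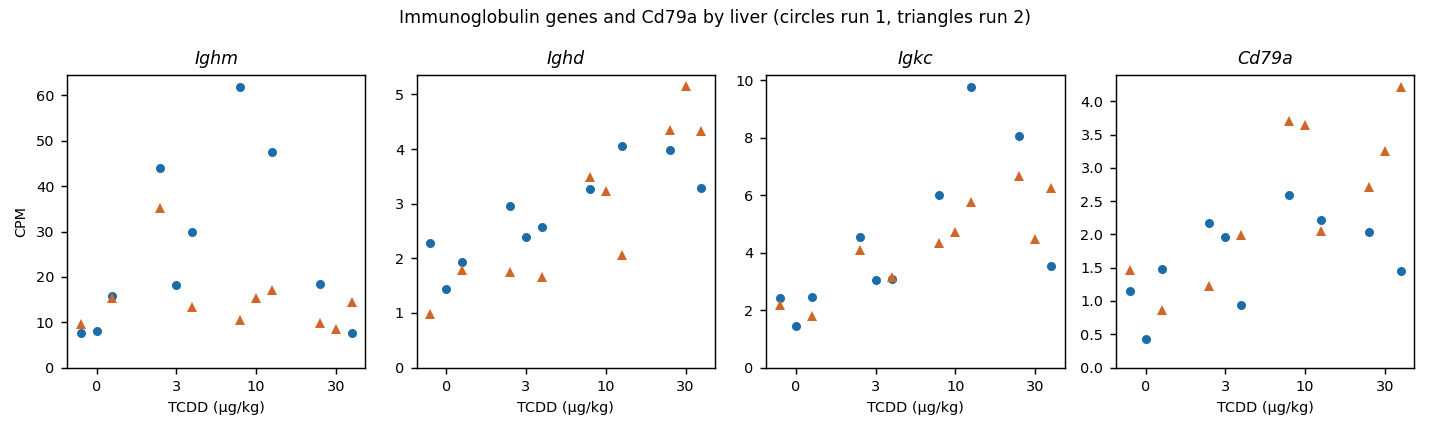
CPM (y axis, from 0) of Ighm, Ighd, Igkc and Cd79a in each liver of vehicle and of TCDD at 3, 10 and 30 μg/kg (x axis), with circles for run 1 and triangles for run 2. The 2 high Ighm values at 10 μg/kg, 47.6 and 61.9 CPM, are both from run 1, and all 5 Ighd values at 30 μg/kg (3.28 to 5.16 CPM) are above the vehicle values.

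Other antibody genes differed from Ighm at 30 μg/kg more than at 10 μg/kg. At 10 μg/kg Ighd (log2 0.93 ± 0.36, edgeR adjusted p = 0.0453) and Igkc (1.57 ± 0.28, adjusted p = 2.59e-05) were higher, as Ighm was. Unlike Ighm, both were also higher at 30 μg/kg. Ighd, the IgD heavy chain of mature B cells, was at 2.29, 1.43, 1.94, 0.979 and 1.79 CPM in vehicle and at 3.98, 3.28, 4.34, 5.16 and 4.34 CPM at 30 μg/kg, without overlap (log2 1.31 ± 0.36, edgeR adjusted p = 0.00193). Igkc, the kappa light chain, was at 1.43 to 2.46 CPM in vehicle and 3.53 to 8.05 CPM at 30 μg/kg (log2 1.49 ± 0.28, adjusted p = 1.77e-05). Igha, the IgA heavy chain, was not called (log2 0.10 ± 0.38, adjusted p = 0.851). In the list of 11 immunoglobulin constant genes other than Ighm, 8 were too low to test. Of the other 3, 2 were higher at 10 μg/kg (13.6% of all genes) and at 30 μg/kg (23.2%). The median log2 fold change of the 3 at 30 μg/kg was 1.31. Ighm made up a median of 75.9% of the counts of the 8 heavy-chain constant genes in vehicle (62.3% to 84.9%) and 62.0% at 30 μg/kg (55.0% to 71.7%), and Ighd 9.96% (8.09% to 18.9%) and 25.7% (15.4% to 33.4%).

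The variable (V) genes, which give each receptor its specificity and are not among the members, were counted as a separate reading. In unscaled counts, the 218 immunoglobulin V genes together held 23 to 56 per vehicle library, 100 to 201 at 10 μg/kg and 62 to 187 at 30 μg/kg. On the TMM-scaled CPM used for the members, their sum was 1.61 to 4.01 CPM in vehicle, 5.88 to 9.27 CPM at 10 μg/kg and 2.58 to 7.91 CPM at 30 μg/kg. On that scale the groups did not overlap at 10 μg/kg, whereas at 30 μg/kg TCDD 30 replicates 2 (2.58) and 4 (3.65) lay below the highest vehicle liver. The 144 T cell receptor V genes together held 0 to 8 unscaled counts in vehicle, 5 to 29 at 10 μg/kg and 23 to 39 at 30 μg/kg. Their sum at 30 μg/kg, 1.06 to 1.62 CPM, did not overlap with the 0 to 0.398 CPM of vehicle. No single immunoglobulin V gene reached 10 counts in a vehicle library, and 0 to 3 did at 30 μg/kg. A median of 17 of them had at least 3 unscaled counts at 30 μg/kg against 3 in vehicle. These are descriptions without a test. Reads that span a V gene and a constant gene hit more than 1 annotated gene and are left out of these counts.

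**Figure D4:**
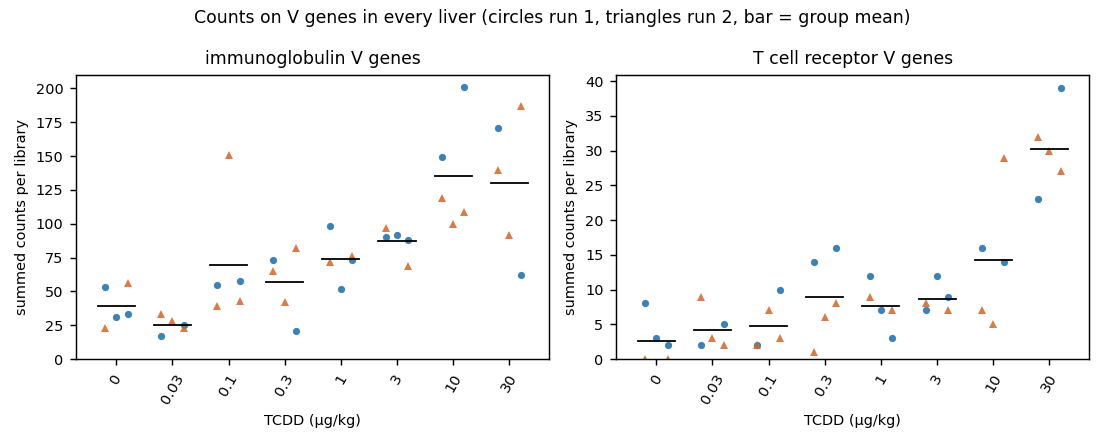
Summed counts per library, not scaled to library size (y axis, from 0), on 218 immunoglobulin V genes and on 144 T cell receptor V genes against the TCDD dose in μg/kg (x axis). Points are mice, with circles for run 1 and triangles for run 2, and bars are group means. Vehicle livers held 23 to 56 and 0 to 8 counts, and livers at 30 μg/kg 62 to 187 and 23 to 39.

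Within a dose, Cd79a and Cd79b varied together, while Cd3e and Cd3g did not pass the test. Over the 40 livers, after the mean of each dose was taken from log2 CPM, 8 pairs were compared by a 2-sided permutation test within doses (100000 resamples, Benjamini-Hochberg adjusted over the 8). Cd79a and Cd79b had a Pearson r of 0.60 (permutation p = 0.00069, adjusted p = 0.0055) and a Spearman rho of 0.58 (permutation p = 0.00058, adjusted p = 0.0046). The r was 0.55 without the 2 livers farthest from the median of Cd79a, 0.71 within run 1 and 0.60 within run 2. Cd79a and Cd3e, from the B and the T cell receptor, had an r of 0.39 (permutation p = 0.0115, adjusted p = 0.0459) and a rho of 0.38 (permutation p = 0.0184, adjusted p = 0.0736), with an r of 0.46 without the 2 farthest livers, 0.19 within run 1 and 0.49 within run 2. The other 6 pairs did not pass after adjustment (permutation adjusted p 0.0901 to 0.880), among them Cd3e with Cd3g (r = 0.33), Jchain with Ighm (r = 0.36) and Cd4 with Cd3e (r = -0.02). Among the 15373 genes tested, those with the highest r to Cd79a over these 40 livers were Rac2 (0.63), Lef1 (0.61), Cd79b (0.60), Il2rg (0.59) and Lck (0.56). Those nearest to Cd3e were Nfatc2 (0.65), Cd74 (0.63), Ppp2r1b (0.62), Cdhr5 (0.61) and Rac2 (0.60), and those nearest to Jchain were Tmem184a (0.64), Ccdc69 (0.61), Tprkb (0.60), Syce2 (0.60) and Kdsr (0.59). These nearest genes were picked as the highest of 15373 r values. They were not tested, and the highest r that chance alone would give was not estimated.

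Further genes of the same cells were followed in lists that leave out the members. These lists were chosen with earlier results of these data known, so they are not independent of the data. Genes with few counts in vehicle enter a list's test through the doses where they are high. Of 14 B cell genes tested, 7 were higher at 10 μg/kg and 12 at 30 μg/kg, and none was lower. Of all genes, 13.6% were higher at 10 μg/kg, and at 30 μg/kg 23.2% were higher and 18.9% lower. These shares stand beside the counts of every list below. The median log2 fold change of the B cell genes at 30 μg/kg was 1.48, against 0.03 over all genes. This and the other list medians at 30 μg/kg were the same with genes at 3 or fewer counts in vehicle set to their lower bound. Their summed level was 10.9 to 14.6 CPM in vehicle and 30.9 to 37.0 CPM at 30 μg/kg. The most abundant were Cd37, a tetraspanin (log2 1.56 ± 0.25, edgeR adjusted p = 1.29e-06), Cd72, a B cell coreceptor (1.49 ± 0.29, adjusted p = 3.24e-05), and Ighd. Cd72 was already higher at 3 μg/kg (1.06 ± 0.29, adjusted p = 0.0139).

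Of 14 genes of the T cell receptor, its coreceptors and its signalling, 1 was higher at 10 μg/kg and 8 at 30 μg/kg, and none was lower. Of all genes, 13.6% were higher at 10 μg/kg and 23.2% at 30 μg/kg. The median log2 fold change of this list was 1.45 at 30 μg/kg. The most abundant gene, Zap70, a kinase recruited to CD3, was at 6.63 ± 1.16 CPM in vehicle and 4.08 ± 3.96 CPM at 30 μg/kg (SD, n = 5) and was not called (log2 -0.71 ± 0.33, edgeR adjusted p = 0.0691). Its vehicle level was far above the vehicle means of Cd3e (0.288 CPM) and Cd3g (0.504 CPM). Whether T cells were the main source of Zap70 was not tested. Thy1, a surface protein of mouse T cells (1.07 ± 0.41, adjusted p = 0.0267), and Lck, the kinase bound to the coreceptors (1.42 ± 0.46, adjusted p = 0.00836), were higher.

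Among 7 genes of gamma delta, regulatory and naive T cells, 3 were higher and 1 was lower at 30 μg/kg, with a median log2 fold change of 1.02. Tcf7, a factor of naive T cells, was higher at 10 μg/kg (log2 1.09) and not called at 30 μg/kg (0.39 ± 0.25, edgeR adjusted p = 0.197).

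Of 7 NK and cytotoxic genes tested, 3 were higher at 10 μg/kg and 4 at 30 μg/kg, with a median log2 fold change of 1.29, and 8 more of the list were too low to test. They included Ccl5, a chemokine (1.47 ± 0.40, edgeR adjusted p = 0.00207), and Klrk1, the receptor NKG2D (1.29 ± 0.43, adjusted p = 0.0113), while Gzma, a granzyme, was not called (0.84 ± 0.51, adjusted p = 0.158). Klrd1, the receptor CD94, had at most 2 counts in a vehicle liver. It was called at 1 μg/kg (at least 3.05-fold higher), not at 3 μg/kg, and again at 10 (at least 4.80-fold) and 30 μg/kg (at least 5.56-fold). The bound sets 3 counts per library, 0.191 CPM, as the vehicle level.

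The plasma cell list gave no common direction. Of 8 genes tested, 2 were higher and 1 was lower at 30 μg/kg, with a median log2 fold change of 0.02. These counts are near the shares of all genes, 23.2% higher and 18.9% lower. The 2 higher genes, which other cells also transcribe, were Slamf7, a surface receptor (3.97 ± 0.52, edgeR adjusted p = 3.25e-08), and Prdm1, the factor Blimp-1 (2.46 ± 0.60, adjusted p = 0.000618). Its most abundant genes are also transcribed by hepatocytes: Sdc1, syndecan-1, was at 326 ± 28.9 CPM in vehicle (SD, n = 5) and lower at 3, 10 and 30 μg/kg. Its log2 fold change was -0.60 ± 0.14 at 3 μg/kg (edgeR adjusted p = 0.00305) and -0.77 ± 0.14 at 30 μg/kg (adjusted p = 9.75e-06). Xbp1, a factor of the secretory pathway, was not called (-0.34 ± 0.17, adjusted p = 0.0826). The fall of Sdc1 at 30 μg/kg was not called with total-count scaling. Fkbp11, a secretory pathway foldase, was higher at 3 μg/kg (0.77 ± 0.20, adjusted p = 0.00825) and not called at 30 μg/kg (0.39 ± 0.20, adjusted p = 0.0943).

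Of 11 genes of lymphocyte recruitment and lymphoid stroma, 6 were higher and 1 was lower at 30 μg/kg, with a median log2 fold change of 1.24. Icam1, an adhesion molecule that lymphocytes bind (1.79 ± 0.26, edgeR adjusted p = 2.55e-07), was higher and Ltbr, the lymphotoxin receptor, was not called (0.31 ± 0.15, adjusted p = 0.073). Cxcl9, a chemokine for activated T cells, was higher at 1 and 3 μg/kg (1.71 ± 0.45, adjusted p = 0.0222, and 1.55 ± 0.45, adjusted p = 0.0211) but not called at 30 μg/kg (0.43 ± 0.45, adjusted p = 0.436). Cxcl10, of the same family, was higher at 3 μg/kg (1.22 ± 0.39, adjusted p = 0.0369) and at 30 μg/kg (1.24 ± 0.39, adjusted p = 0.00632).

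**Figure D5:**
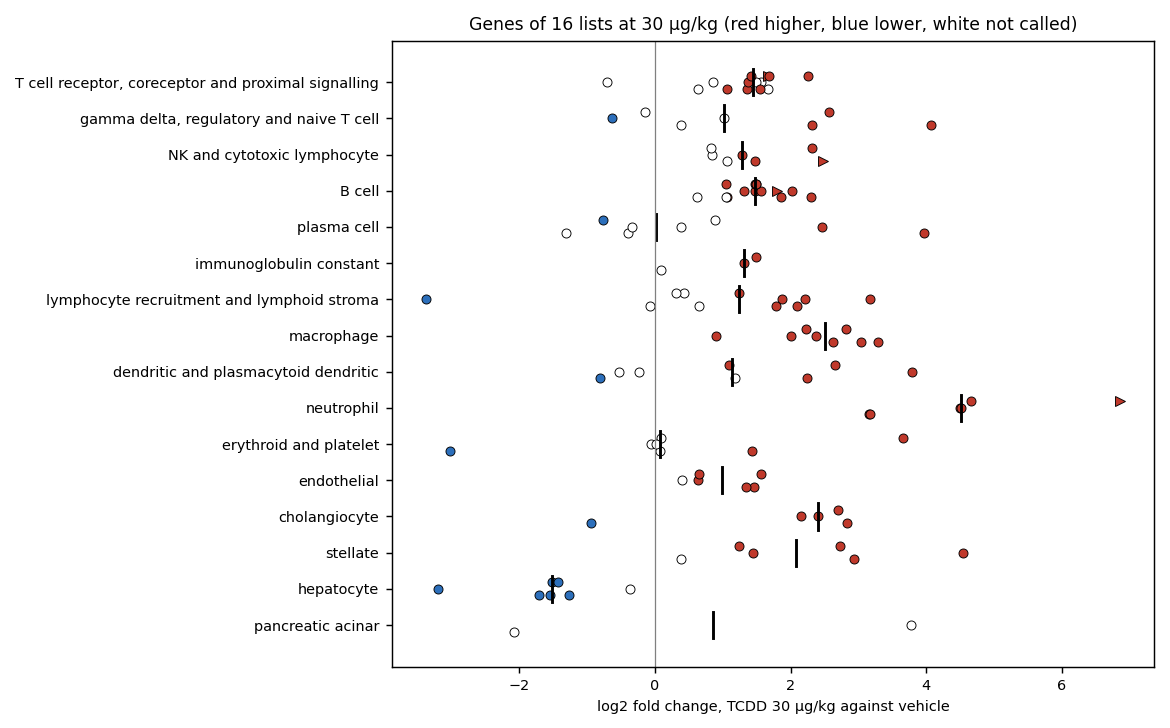
Log2 fold change at 30 μg/kg against vehicle (x axis) of each tested gene of 16 lists (y axis), from edgeR with 5 mice in each group. Red points were called higher, blue lower and white not called, right-pointing triangles are lower bounds for genes at 3 or fewer counts in every vehicle liver, and black bars are list medians. The B cell list has a median of 1.48, the macrophage list 2.50 and the hepatocyte list -1.51.

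Markers of several other liver cells were also higher at 30 μg/kg, while most hepatocyte markers were lower. Of all genes, 23.2% were higher and 18.9% lower. All 8 macrophage genes were higher at 30 μg/kg, and their sum was 192 to 260 CPM in vehicle and 648 to 1583 CPM at 30 μg/kg, with Cd5l (log2 2.82), Clec4f (0.90) and Lyz2 (3.29) the most abundant. All 6 neutrophil genes were higher (1.96 to 3.98 CPM against 17.9 to 88.1), with Csf3r at 3.15, S100a9 at 4.65 and Mmp8, at 0 counts in every vehicle liver, at least 116-fold higher. Of 8 dendritic genes 4 were higher, Itgax (3.80), Siglech (2.66), Flt3 (2.24) and Clec9a (1.09), Bst2 was lower (-0.81) and Zbtb46 was not called (-0.24). The summed level of that list, 157 to 209 CPM in vehicle and 76.4 to 178 CPM at 30 μg/kg, was mostly Bst2, at 166 ± 21.8 and 94.6 ± 39.1 CPM (SD, n = 5). Hepatocyte genes were lower in 6 of 7 (sum 103387 to 124651 against 30138 to 63756 CPM), among them Alb (-1.27), Cyp2e1 (-1.72) and Ttr (-1.54). Endothelial (5 of 6, with Kdr at 0.63 and Cdh5 at 1.47, and Stab2 at 0.40 not called), stellate (5 of 6, with Dcn at 1.24, Reln at 2.73 and Col1a1 at 4.54) and cholangiocyte genes (4 of 5, with Spp1 at 2.41 and Krt19 at 2.15) were also higher, and Sox9 was lower (-0.95). Of the 7 erythroid and platelet genes, the haemoglobins Hbb-bs (0.07) and Hba-a1 (-0.05) were not called and Alas2, an enzyme of haem synthesis, was lower (-3.02), while the platelet genes Pf4 (3.66) and Ppbp (1.44) were higher. Neither of the 2 pancreatic genes tested, Ctrb1 and Cela2a, was called, and Pnlip was too low to test. The part of these shifts in the members' values was not tested.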

How the data were processed

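Hepatic RNA of 40 mice was sequenced, and the authors deposited 1 table of raw gene counts per library, with unstranded and strand-specific columns, made with STAR 2.7.3a after FastQC 0.11.7 and Trimmomatic 0.39 per the labels' processing notes, which also name the builds GRCm39 and mm10 with no role. The unstranded count column was used, since 50.0% to 50.3% of strand-specific counts fell on the first strand. Reads on several genes or places are left out by the counter. A deposited normalized table was not used here. Genes were named through GENCODE M21 (52083 of 55359 identifiers). The counts were analysed with edgeR 4.0.16 in R 4.3.3: filterByExpr (minimum count 10, total 15), TMM scaling, 1 mean per dose, quasi-likelihood tests, and a slope on dose steps from 0 to 7. The study used an empirical Bayes posterior probability, not installed here. SE is from the fit and SD is between mice. Log2 CPM had a prior count of 2. The floor of 3 counts covers counting error alone. Groups came from the labels, and nothing in them pairs mice. Alternatives were DESeq2 1.42.0, other scalings, no filter, vehicle with 1 dose alone, the 2 numbering runs (19 and 21 libraries) and leaving out each library. The fits were run on simulated data, in which only genes with more vehicle counts than most members had were changed. That run does not cover genes as low as these members. The members and lists were chosen with earlier results of these data known. Of 150 list genes 149 were found. Named were the members, the 3 most abundant measured genes of each list, lymphocyte list genes called under 10 μg/kg, and the 5 genes nearest Cd3e, Cd79a and Jchain. Cd8b1, Mzb1, Tnfrsf17, Slamf7, Prdm1, Itgax, Siglech, Flt3, Pf4 and Ppbp fall outside that rule and were named after their values were seen. Some genes that this rule names are not reported here. Promoters are RefSeq GRCm38.p6.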

Additional observations from a re-analysis of the deposited data

Results flagged for a closer look

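Of 80 groups of 5 livers (10 members at 8 doses), 4 held a liver far from the others of its group on the log2 CPM scale by Dixon's criterion, and chance alone gives about 1 in 20. Cd4 was at 0.873 CPM (13 counts) in TCDD 0.03 replicate 5, against 2.03 to 2.58 CPM in the other livers. Cd8a was at 0.181 CPM (3 counts) in TCDD 3 replicate 1, against 0.512 to 0.716 CPM. Cd79b was at 0.734 CPM (14 counts) in TCDD 0.3 replicate 3, against 1.35 to 1.49 CPM, and at 2.90 CPM (49 counts) in TCDD 1 replicate 1, against 1.01 to 1.37 CPM. None of these livers is in a group where that gene was called.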

How the results depend on the processing

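The counts of members called at 0.03, 0.1, 0.3 and 1 μg/kg were 0 under every alternative run. At 3 μg/kg the count was 0 in run 2 alone and 0 to 1 when a library was left out. At 10 μg/kg it was 3 without the low-count filter, 3 in run 1 alone, 0 in run 2 alone and 3 to 5 when a library was left out (3 without vehicle replicate 2, vehicle replicate 5 or TCDD 10 replicate 4). At 30 μg/kg it was 3 in run 1 alone, 2 in run 2 alone, which hold fewer mice, and 4 to 6 when a library was left out. DESeq2 gave 5 at 10 and 6 at 30 μg/kg. Without TCDD 10 replicate 1, Cd4 was called lower at 10 μg/kg (log2 -1.04, edgeR adjusted p = 0.0389). Directions reversed for members that were not called: at 10 μg/kg Cd3g (-0.69 in run 2 alone, -0.35 to 0.49 with a library left out), Nkg7 (-0.17 in run 2 alone) and Jchain (0.079 in run 1 alone), and at 30 μg/kg Cd3g (-0.26 in run 1 alone), Ighm (-0.22 in run 2 alone, -0.17 to 0.22 with a library left out), and Cd4 (0.24) and Jchain (0.094) scaled to total counts. The cause was not tested. That scaling moved the median log2 fold change of all genes at 30 μg/kg from 0.03 to 0.52. It called 12 genes of the T cell receptor list in place of 8 and 6 of the NK list in place of 4, and 8 members rose along the dose steps and none fell. No paired analysis was possible because replicate numbers followed accession order, which links no mouse of one group to one of another. With a mean of 4.8 counts of Cd3e and 2.8 of Cd8a in vehicle livers, SEs near 0.6 on the log2 scale limit what could be detected for these genes.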

Other observations

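Ighm, looked at after its values were seen, had a within-dose r over 40 livers of 0.69 with Sar1b, 0.67 with Hdac5, 0.66 with Me1, 0.62 with Ppp2r5a and 0.62 with Ndfip1, the 5 genes nearest to it among 15373. These r values were picked as the highest and were not tested. Among the genes of lymphocyte recruitment, Vcam1, an endothelial adhesion molecule that lymphocytes bind, was at 3.84 ± 1.67 CPM in vehicle and 34.9 ± 9.93 CPM at 30 μg/kg (SD, n = 5, log2 3.17 ± 0.27, SE, edgeR adjusted p = 1.84e-12), whereas Ccl21a, a chemokine of lymphoid stroma, was at 1.79 ± 1.10 CPM and 0.167 ± 0.0535 CPM (log2 -3.37 ± 0.62, adjusted p = 1.46e-05). Il7r, the interleukin 7 receptor, was at 0.314 ± 0.203 CPM and 5.49 ± 2.38 CPM (log2 4.07 ± 0.65, adjusted p = 1.34e-06). These 3 genes were named after their values were seen. Nkg7 and Cd8a had a within-dose r of -0.43 within run 1 (19 livers) and 0.57 within run 2 (21 livers).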
